A study of Mus musculus with 12 samples.

Results

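Fibroblast growth factors (FGFs) and their receptors were followed in RNA of mouse midbrain dopaminergic neurons. The 10 genes described were chosen by name as a family and matched by symbol in the deposited table. They are the secreted ligands Fgf1, Fgf2, Fgf9 and Fgf20, the intracellular family members Fgf12, Fgf13 and Fgf14, and the receptors Fgfr1, Fgfr2 and Fgfr3, out of 23079 genes listed. All 10 had enough reads to be tested. The samples are C57BL/6 mice without any treatment named in the labels, taken from the substantia nigra pars compacta (SNpc), whose dopaminergic neurons are lost early in Parkinson disease, or from the neighbouring ventral tegmental area (VTA). The labels call them TRAP samples, here taken to mean translating ribosome affinity purification, a method that pulls down RNA bound to ribosomes tagged in chosen cells. The line or promoter that drives the tag, the age and sex of the mice, and the number of animals behind a library do not stand in the labels, so p-values measure the spread between libraries, which may be technical.

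The 12 columns of the table hold 10 distinct libraries. SNpc columns 4 and 5 had 0 genes at different counts, as had VTA columns 2 and 3. Each of these pairs held identical counts and was counted as 1 sample, leaving SNpc libraries 1, 2, 3, 4 and 6 and VTA libraries 1, 2, 4, 5 and 6. Total counts ran from 62356964 to 81393907 per library. Dopaminergic markers were abundant in every library: the summed level of 13 such genes, Th and the dopamine transporter gene Slc6a3 among them, was 13411 to 19569 CPM (reads of a gene relative to the library total) in SNpc and 7403 to 10888 CPM in VTA. SNpc was called the higher region for 12 of these 13 genes, whose median log2 fold change was 0.74, and for 17.8% of all genes tested. In bulk RNA of this kind, fewer cells of a type and less RNA per cell cannot be told apart. The female transcript Xist stood at 0 to 0.242 CPM and the Y-linked gene Ddx3y at 49.9 to 70.2 CPM in all 10 libraries. Of the other Y-linked genes, Uty was called higher in VTA (log2 fold change -0.88, edgeR adjusted p = 0.00276). Kdm5d (-0.39) and Eif2s3y (0.32) did not pass.

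FGFs are small growth factors. The secreted ones bind receptor tyrosine kinases together with heparan sulphate, and the activated receptor signals through the docking protein FRS2 to the MAP kinase cascade, which induces its own inhibitors of the Sprouty family. A separate branch, the FGF homologous factors FGF12, FGF13 and FGF14, has no signal peptide, stays inside the cell and binds the tails of voltage-gated sodium channels. In the midbrain, FGF2 and FGF20 are known as trophic factors for dopaminergic neurons, and FGFR3 is known as a receptor of astrocytes.

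The 10 members were divided between the regions. Fgf1, Fgf20 and Fgf13 were higher in SNpc, Fgf14, Fgfr2 and Fgfr3 were higher in VTA, and Fgf2, Fgf9, Fgf12 and Fgfr1 did not pass the test (quasi-likelihood test of edgeR over 15685 genes, with p under 0.05 after Benjamini-Hochberg adjustment). Thus 3 of 10 members were called higher in SNpc and 3 in VTA, 6 in all, while 38.2% of all genes tested were called, 17.8% higher in SNpc and 20.4% higher in VTA. This even split holds for the 10 genes chosen. Among other FGF genes, described below, 6 were tested, with 0 called higher in SNpc and 3 in VTA. The median log2 fold change (SNpc minus VTA throughout) was -0.12 over the 10 members and -0.04 over all genes tested. All CPM values use TMM scaling, the trimmed mean of M values. Their ranges in the 2 regions did not overlap for 4 members, 2 in each direction, while 26.6% of all genes tested had separate ranges.

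**Figure D1:**
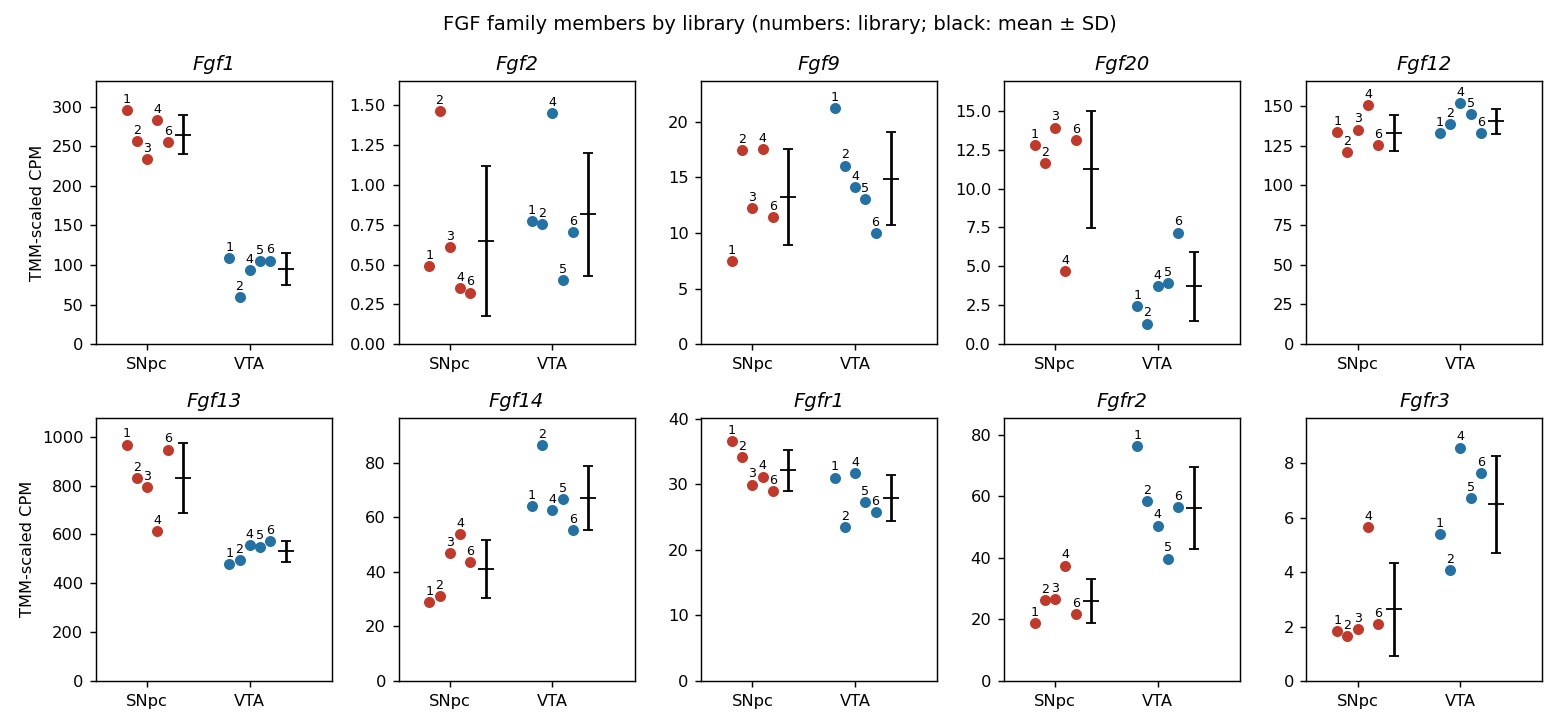
TMM-scaled CPM of the 10 members (y axis, linear from 0) in each SNpc (red) and VTA (blue) library, with the library number beside each point and the mean ± SD in black. Fgf1, Fgf13, Fgf14 and Fgfr2 have separate ranges, and SNpc library 4 lies apart from the other SNpc libraries for Fgf20 (4.70 CPM) and Fgfr3 (5.66 CPM).

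Among the 4 secreted members, only Fgf1 had separate ranges in the 2 regions. FGF1, or acidic FGF, leaves cells without a signal peptide and can activate every FGF receptor. Fgf1 (Entrez 14164, mm10 chromosome 18, 38838672 to 38929470, minus strand) stood at 296, 257, 234, 283 and 255 CPM in SNpc libraries 1, 2, 3, 4 and 6 and at 109, 59.5, 94.0, 105 and 106 CPM in VTA libraries 1, 2, 4, 5 and 6. Every SNpc library lay above every VTA library, and VTA library 2 was the lowest. The means were 265 ± 24.7 and 94.6 ± 20.4 CPM (SD, n = 5 each), a log2 fold change of 1.49 with a standard error (SE) of 0.14 (edgeR adjusted p = 8.02e-07), or 2.80-fold. No exon of another annotated gene overlaps it.

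Fgf20 had a fold change of similar size on a far lower level. It encodes a secreted factor of the FGF9 subfamily (Entrez 80857, chromosome 8, 40279166 to 40286953, minus strand). Its levels were 12.8, 11.6, 13.9, 4.70 and 13.1 CPM in SNpc and 2.45, 1.33, 3.72, 3.91 and 7.17 CPM in VTA, in the same library order. SNpc libraries 1, 2, 3 and 6 lay above all VTA libraries, whereas SNpc library 4 fell inside the VTA range. The means were 11.2 ± 3.74 and 3.71 ± 2.20 CPM (SD, n = 5 each), for a log2 fold change of 1.60 (SE 0.39) with an edgeR adjusted p of 0.00393, and without SNpc library 4 it was 1.86. Its exons overlap those of Micu3 (listed as Efha2), a regulator of mitochondrial calcium uptake, on the opposite strand, which makes its count uncertain. Micu3 stood at 324 to 441 CPM in SNpc and 206 to 262 CPM in VTA, and Fgf20 amounted to 0.636% to 3.59% of it. Micu3 was itself called higher in SNpc, as Fgf20 was (log2 fold change 0.72, edgeR adjusted p = 5.83e-05). What part of the Fgf20 counts came from Micu3 was not tested. In SNpc library 4 Micu3 was at 353 CPM, within the range of the other SNpc libraries.

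Fgf9 and Fgf2 did not pass. Fgf9, a mitogen of glia and a survival factor of neurons (Entrez 14180, chromosome 14, 58070671 to 58112854), ranged from 7.50 to 17.5 CPM in SNpc and from 9.97 to 21.2 CPM in VTA. Its log2 fold change was -0.17 (SE 0.24) at an edgeR adjusted p of 0.617. Fgf2, or basic FGF (Entrez 14173, chromosome 3, 37348477 to 37410106), was the least abundant member, with 20 to 92 reads per library or 0.323 to 1.47 CPM. Its log2 fold change of -0.33 had an SE of 0.71 (edgeR adjusted p = 0.748), so a difference of the size seen for Fgfr2 would not have been told from 0 at this SE. Fgf2 shares exons with Nudt6 on the opposite strand, which stood at 6.16 to 13.5 CPM, and with Gm43439 on the same strand.

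Of the intracellular FGFs, Fgf13 was higher in SNpc and Fgf14 in VTA, while the level of Fgf12 overlapped. FGF13 binds sodium channels and microtubules. Fgf13 (Entrez 14168, chromosome X, 59062139 to 59585572, minus strand) stood at 968, 831, 795, 614 and 948 CPM in SNpc libraries 1, 2, 3, 4 and 6 and at 477, 495, 556, 551 and 573 CPM in VTA libraries 1, 2, 4, 5 and 6. All SNpc values were above all VTA values, with SNpc library 4 nearest to them. The means of 831 ± 142 and 530.4 ± 41.6 CPM (SD, n = 5 each) gave a log2 fold change of 0.65 (SE 0.11) with an edgeR adjusted p of 0.000247.

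Fgf14, whose human counterpart is mutated in a hereditary ataxia, went the other way (Entrez 14169, chromosome 14, 123974441 to 124677686, minus strand). It was at 28.9, 31.2, 46.9, 53.9 and 43.6 CPM in SNpc and at 64.2, 86.5, 62.5, 66.6 and 55.4 CPM in VTA. The groups were separate by a narrow margin, between SNpc library 4 and VTA library 6. The log2 fold change was -0.71 ± 0.17 (SE, edgeR adjusted p = 0.00309), with means of 40.9 ± 10.6 and 67.0 ± 11.6 CPM (SD, n = 5 each). Exons of Gm28932 overlap it on the opposite strand.

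Fgf12 (Entrez 14167, chromosome 16, 28157783 to 28753243) stood at 133, 121, 135, 150.4 and 125 CPM in SNpc and 133, 139, 152, 145 and 133 CPM in VTA. Its log2 fold change was -0.08 ± 0.09 (SE, edgeR adjusted p = 0.538), and the ranges overlapped. Genes of this branch are known for alternative first exons that give proteins with different amino termini, and the counts per gene do not separate these forms.

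The promoter windows of Fgf13 and Fgf14 are shown because these intracellular FGFs differed in opposite directions. Sequences are RefSeq's for build GRCm38.p6 (mm10), 250 bases before an annotated start, 5′ to 3′ on the gene's strand. Capitals mark the GC box GGGCGG or its reverse complement, the binding sequence of Sp factors. Of 4 Fgf13 windows 2 are printed, chrX:59585573-59585822 and chrX:59567349-59567598, followed by that of Fgf14, chr14:124192547-124192796, all on the minus strand. The Fgf14 window lies within the annotated gene.
Fgf13 at 59585573: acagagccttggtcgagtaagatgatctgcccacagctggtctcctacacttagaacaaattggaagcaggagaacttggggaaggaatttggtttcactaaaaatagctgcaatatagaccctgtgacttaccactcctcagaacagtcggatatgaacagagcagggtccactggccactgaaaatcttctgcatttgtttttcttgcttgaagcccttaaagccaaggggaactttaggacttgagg
Fgf13 at 59567349: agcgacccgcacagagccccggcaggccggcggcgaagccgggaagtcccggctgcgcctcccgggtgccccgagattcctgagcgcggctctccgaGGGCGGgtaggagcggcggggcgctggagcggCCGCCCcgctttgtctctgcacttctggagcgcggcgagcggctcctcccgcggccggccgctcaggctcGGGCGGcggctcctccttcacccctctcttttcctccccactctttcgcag
Fgf14: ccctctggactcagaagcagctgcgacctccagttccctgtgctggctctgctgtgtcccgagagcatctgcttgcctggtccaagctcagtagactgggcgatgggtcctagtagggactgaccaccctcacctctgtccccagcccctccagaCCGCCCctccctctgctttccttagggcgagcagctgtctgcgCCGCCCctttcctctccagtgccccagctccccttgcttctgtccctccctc
The first Fgf13 window had 45.6% G and C with 2 CG dinucleotides and 0 GC boxes, and the second 74.8% with 33 CG dinucleotides. Fgf14 had 64.0% with 7. The median over 32851 such windows was 52.4% G and C. The counts do not tell from which start the Fgf13 reads came.

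Of the 3 receptors, Fgfr2 and Fgfr3 were higher in VTA and Fgfr1 did not pass. Fgfr2 (Entrez 14183, chromosome 7, 130162451 to 130266808, minus strand), a receptor expressed by astrocytes and the oligodendrocyte lineage, stood at 18.7, 26.2, 26.5, 37.4 and 21.6 CPM across the SNpc libraries. It stood at 76.3, 58.5, 50.4, 39.8 and 56.4 CPM across the VTA libraries, in the order used above. The groups did not overlap, with SNpc library 4 and VTA library 5 nearest to each other. The means were 26.1 ± 7.14 and 56.3 ± 13.3 CPM (SD, n = 5 each), for a log2 fold change of -1.11 (SE 0.19) with an edgeR adjusted p of 0.000229. Its exons overlap those of Ctbp2 on the same strand, which stood at 13.7 to 22.0 CPM in SNpc and 11.6 to 15.1 CPM in VTA.

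Fgfr3 (Entrez 14184, chromosome 5, 33721724 to 33737068, plus strand) was the least abundant receptor, at 1.84, 1.65, 1.91, 5.66 and 2.10 CPM in SNpc and 5.40, 4.08, 8.58, 6.73 and 7.65 CPM in VTA. SNpc libraries 1, 2, 3 and 6 lay below all VTA libraries, but SNpc library 4 was above VTA libraries 1 and 2. The log2 fold change was -1.30 ± 0.38 (SE, edgeR adjusted p = 0.0121) with means of 2.63 ± 1.70 and 6.49 ± 1.79 CPM (SD, n = 5 each), and it was -1.73 without SNpc library 4. G630022F23Rik overlaps it on the opposite strand.

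Fgfr1, the main FGF receptor of neurons (Entrez 14182, chromosome 8, 25518759 to 25575718), did not pass the test. It stood at 36.5, 34.1, 29.9, 31.2 and 29.0 CPM in SNpc and 31.0, 23.5, 31.7, 27.3 and 25.7 CPM in VTA, with overlapping groups. Its log2 fold change was 0.21 ± 0.13 (SE, edgeR adjusted p = 0.229). After each gene had been centred on its mean over all libraries, log2 CPM changed with transcript length differently in the regions. The change for each doubling of length was -0.19 to -0.040 in SNpc libraries and 0.070 to 0.24 in VTA libraries. Centring sets these slopes around 0. They show a difference between the regions, not how abundance varies with length within a library. After this trend had been removed the value of Fgfr1 was 0.43 and passed (edgeR adjusted p = 0.0248, with 0.0248 to 0.517 over all alternatives). Gm16159 overlaps it on the opposite strand.

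The windows of Fgfr2 (chr7:130266809-130267058, minus strand) and of the first of 2 starts of Fgfr3 (chr5:33721474-33721723, plus strand) are shown because both receptors were higher in VTA. Capitals again mark GC boxes.
Fgfr2: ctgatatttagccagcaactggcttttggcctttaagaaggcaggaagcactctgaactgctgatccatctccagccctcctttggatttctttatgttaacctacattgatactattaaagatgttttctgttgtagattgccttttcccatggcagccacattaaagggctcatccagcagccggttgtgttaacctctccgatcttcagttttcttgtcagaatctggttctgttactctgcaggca
Fgfr3: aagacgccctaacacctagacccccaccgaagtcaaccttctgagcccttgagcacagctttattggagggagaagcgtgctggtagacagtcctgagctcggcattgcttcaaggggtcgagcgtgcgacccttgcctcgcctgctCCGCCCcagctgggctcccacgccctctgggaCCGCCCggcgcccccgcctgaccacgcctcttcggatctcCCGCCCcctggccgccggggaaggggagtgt
They were unlike in base composition, with 44.0% G and C and 2 CG dinucleotides in Fgfr2 against 66.8% and 19 in Fgfr3. Of the 14 windows that RefSeq gave for 7 members, 9 held a GC box on either strand, as did 32.7% of all windows. The other sequences searched on both strands do not overlap the GC box. They were the TATA box TATAAA (in 12.4% of all windows), the site TAATCC of homeodomain factors such as Pitx3 and Otx2 (6.25%), the Nr4a2 site AAAGGTCA (1.34%) and the forkhead site TGTTTAC (3.17%), and none of the 14 windows held these letters. The 7 members matched do not include Fgf1, Fgf20 and Fgfr1.

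**Figure D2:**
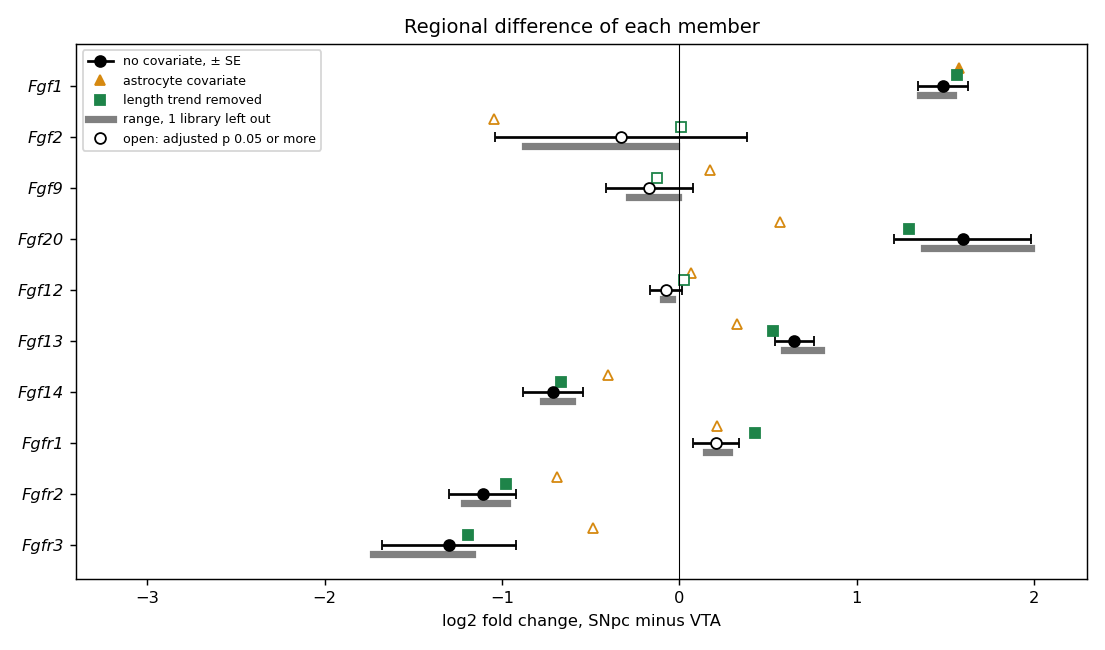
Log2 fold change of each member, SNpc minus VTA, on the x axis. Black circles are the estimate ± SE, triangles the estimate with astrocyte markers as a covariate, squares that after removal of the length trend, and grey bars the range when 1 library was left out. Filled symbols have an adjusted p under 0.05. With the covariate only Fgf1 is filled.

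Markers of other cell types were followed in the same libraries. Of all genes tested, 17.8% were called higher in SNpc and 20.4% in VTA. The summed level of 13 astrocyte markers was 470.2 to 514 CPM in SNpc libraries 1, 2, 3 and 6, 765 CPM in SNpc library 4, and 690 to 865 CPM in VTA. Of these markers 0 were called higher in SNpc and 4 in VTA (Slc1a2, Slc1a3, Slc4a4 and Acsbg1), while Gfap (5.32 and 4.87 CPM) and Aqp4 (9.54 and 15.2 CPM) did not pass, and none was at 0 in all libraries. With the mean log2 CPM of the astrocyte list as a covariate, 1 member was called and not 6. Fgf1 kept a log2 fold change of 1.57 (edgeR adjusted p = 6.02e-05). The values of the others were 0.32 for Fgf13, 0.57 for Fgf20, -0.41 for Fgf14, -0.69 for Fgfr2 and -0.49 for Fgfr3, with edgeR adjusted p = 0.101, 0.443, 0.254, 0.0685 and 0.484. Over all alternatives these 5 genes had adjusted p from 3.64e-07 to 0.101, 0.000131 to 0.443, 0.000700 to 0.254, 6.12e-07 to 0.0685 and 0.000543 to 0.484. The covariate differed between the regions itself, at 2.59 to 2.83 in SNpc libraries other than 4, 3.97 in SNpc library 4 and 3.65 to 3.92 in VTA.

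SNpc library 4 was also the highest for 11 oligodendrocyte markers, at 1441 CPM against 293 to 531 CPM in the other SNpc libraries and 738 to 928 CPM in VTA, and 1 of 11 was called, in VTA. Oligodendrocyte precursor markers summed to 136 CPM there, 68.4 to 86.4 CPM in the other SNpc libraries and 96.9 to 135 CPM in VTA, and 4 of 7 were called higher in VTA. GABAergic markers summed to 314 CPM in SNpc library 4, 84.8 to 139 CPM in the other SNpc libraries and 165 to 279 CPM in VTA. Their median log2 fold change was 0.56, toward SNpc. Of these 3 markers 0 were called by edgeR, with Gad2 at an unadjusted p of 0.0326 in the same model. Markers of glutamatergic neurons gave 87.7 CPM in that library, 18.6 to 37.1 CPM in the others and 93.1 to 131 CPM in VTA, and 2 of 3 were called in VTA. Microglial markers summed to 37.6 CPM in SNpc library 4, 14.5 to 29.0 CPM in the other SNpc libraries and 36.0 to 53.1 CPM in VTA, with 2 of 7 called, both in VTA, and of 6 vascular markers tested 3 were called, all in VTA. Of 2 ependymal markers tested 0 were called, and of 3 fibroblast and meningeal markers tested 2 were called, both in VTA. The fibroblast and meningeal markers summed to 33.3 CPM in VTA library 1, 2.65 to 7.67 CPM in the other VTA libraries and 1.41 to 5.77 CPM in SNpc. The part of these cells in the members' differences was not tested beyond the covariate.

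For Fgf13, Fgf14, Fgf20, Fgfr2 and Fgfr3, SNpc library 4 was the SNpc library nearest to VTA, that is for 5 of the 6 members called. The same library was nearest for 31.2% of all 5996 genes called and SNpc library 6 for 31.1%. Fgf1 was the exception, with SNpc library 4 its second highest value. Leaving out SNpc library 4 kept all 6 calls. For the 5 members named first this removes the SNpc value nearest to VTA, so it is no independent check of their calls. VTA library 1 stood apart in vascular markers, at 87.5 CPM against 6.64 to 13.3 CPM in the other VTA libraries and 1.87 to 10.1 CPM in SNpc, and it had the highest Fgf9 and Fgfr2 values.

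**Figure D3:**
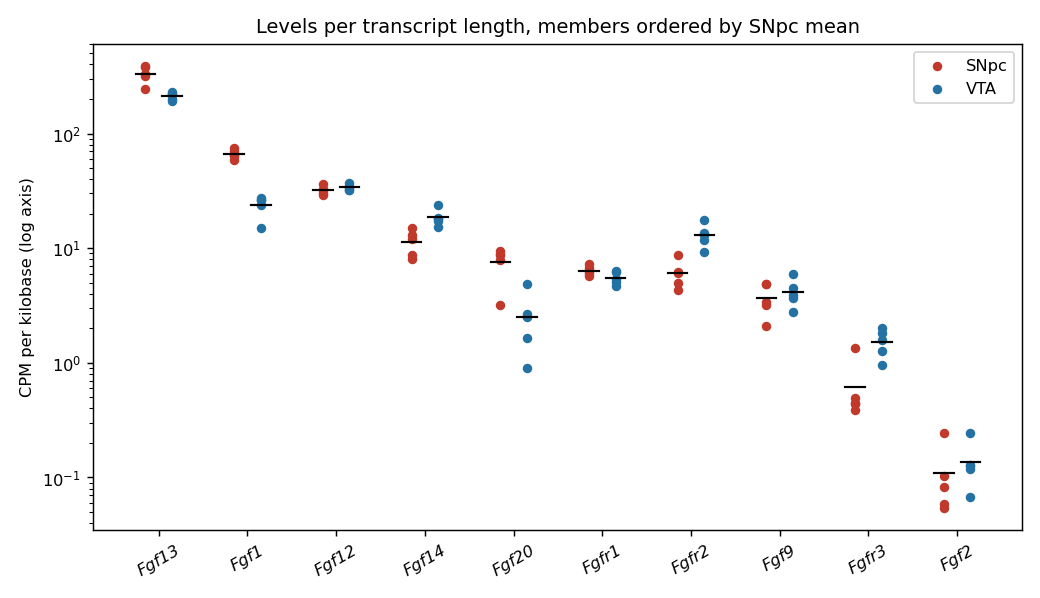
CPM per kilobase of transcript (y axis, log scale) of the 10 members, ordered by their SNpc mean, in SNpc (red) and VTA (blue) libraries, with a black bar at each mean. Fgf13 leads in both regions and Fgf2 is lowest in both, while Fgf1 and Fgf12 change places.

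Levels of different genes were compared as CPM per kilobase of the longest GENCODE basic transcript. Fgf13 was the most abundant member in both regions, with means of 333 ± 56.9 CPM per kilobase for SNpc and 212 ± 16.7 for VTA (SD, n = 5 each). In SNpc it was followed by Fgf1 (66.5 ± 6.20), Fgf12 (32.1 ± 2.75) and Fgf14 (11.3 ± 2.94), and each of the first 3 was separate from the next. From Fgf14 through Fgf20 (7.61), Fgfr1 (6.37), Fgfr2 (6.05) and Fgf9 (3.69) each neighbour in the order overlapped the next. Fgfr3 (0.620) and Fgf2 (0.109) followed with separate ranges.

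In VTA the order on the same scale was Fgf13, Fgf12 (33.9 ± 1.96), Fgf1 (23.8 ± 5.13), Fgf14 (18.6 ± 3.23) and Fgfr2 (13.1 ± 3.10). Fgf1 overlapped Fgf14 and Fgf14 overlapped Fgfr2, whereas Fgf12 was separate from Fgf1. Fgfr1 (5.52), Fgf9 (4.15), Fgf20 (2.52) and Fgfr3 (1.53) followed, each overlapping its neighbour among these 4, and Fgf2 (0.137) was again the lowest, separate from Fgfr3.

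**Figure D4:**
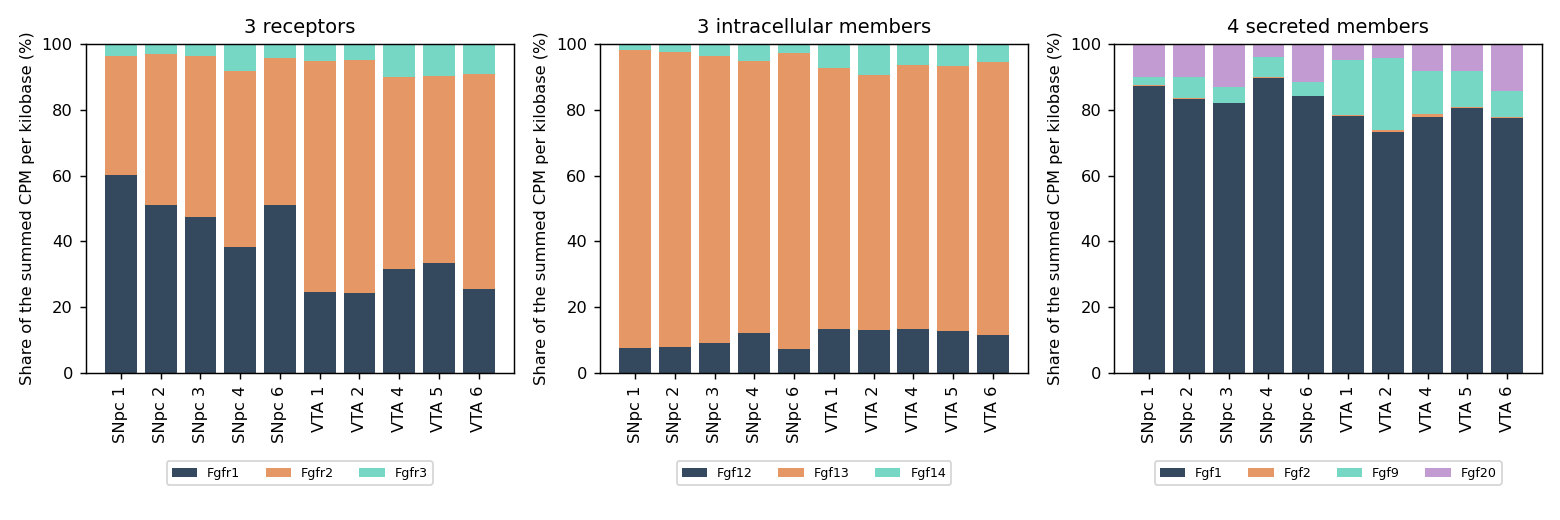
Share of each gene in the summed CPM per kilobase (y axis, percent) in each library (x axis), for the 3 receptors, the 3 intracellular members and the 4 secreted members. Fgfr1 takes 38.2% to 60.3% of the receptor sum in SNpc and 24.3% to 33.4% in VTA, while its own level did not pass the test.

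The make-up of each branch is described here by shares among the 10 members, without a test. Fgfr1 made up 49.6% ± 7.98 of the SNpc sum of the 3 receptors and 27.8% ± 4.27 of that in VTA (SD, n = 5 each), and Fgfr2 45.9% ± 6.47 and 64.4% ± 6.51. Per length, the ratio of Fgfr2 to Fgfr1 averaged 0.962 in SNpc and 2.38 in VTA. Fgf13 made up 82.7% to 90.6% of the 3 intracellular members in SNpc and 77.5% to 82.9% in VTA, with VTA library 6 just above SNpc library 4. Fgf14 took 1.87% to 5.03% in SNpc and 5.55% to 9.38% in VTA. Fgf1 was 81.9% to 89.7% of the 4 secreted members in SNpc and 73.1% to 80.6% in VTA, and Fgf9 was 2.45% to 6.27% and 8.09% to 21.9%. These shares depend on which genes enter the sum and on the levels of the others in it. Fgfr1 and Fgf9 did not themselves pass the test between the regions. With Fgf11 added to the intracellular sum, Fgf13 made up 80.4% to 89.6% in SNpc and 75.4% to 80.3% in VTA. With all 18 secreted FGF genes listed, Fgf10 and Fgf18 among them, Fgf1 made up 75.5% to 80.7% in SNpc and 46.0% to 61.8% in VTA.

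The profiles most like those of 3 members were sought among all genes whose log2 CPM averaged 3 or more, by the root mean square difference of centred log2 CPM over the 10 libraries. For Fgf1, D19Ertd737e was nearest at 0.17, then Lmcd1 at 0.20 and the calcium sensor gene Vsnl1 at 0.23, where the median over 10162 genes was 0.79. Fgf20 was less closely matched, by Ankk1 (0.48), Lix1 (0.49) and Aldh1a7 (0.49). The nearest to Fgfr3 were Bcas1 (0.24), known from oligodendrocytes, the heparan sulphate sulphotransferase gene Ndst3 (0.31) and Kcnj10 (0.32), a potassium channel gene of glia.

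**Figure D5:**
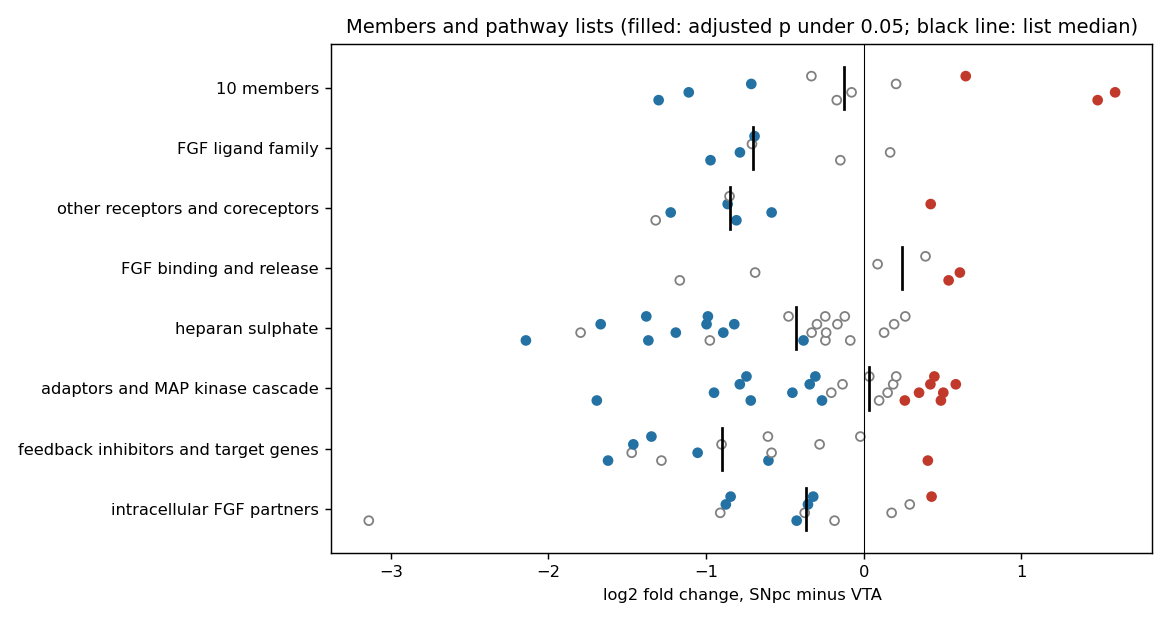
Log2 fold change, SNpc minus VTA (x axis), of tested genes in the family and in 7 lists of related genes (rows). Filled red and blue points were called higher in SNpc and VTA, open points were not called, and black lines are list medians, which run from -0.90 for feedback inhibitors and targets to 0.24 for FGF binding and release.

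The calls in the lists that follow can be set beside all genes tested, of which 17.8% were called higher in SNpc and 20.4% in VTA. Most of the remaining FGF genes had few reads. Of 15, 6 had enough reads to be tested, with 0 called in SNpc, 3 in VTA and a median log2 fold change of -0.70. With SNpc means given first, those called were Fgf10, a ligand known from organ budding (12.8 ± 3.11 and 22.1 ± 8.22 CPM, log2 fold change -0.78), Fgf11, the fourth intracellular FGF (15.6 ± 5.72 and 25.3 ± 5.45 CPM, -0.69), and Fgf18 (2.35 ± 0.984 and 4.62 ± 0.911 CPM, -0.97, SD over 5 libraries each). The call of Fgf18 was the weakest (edgeR adjusted p = 0.0499) and ended in 12 of 18 alternatives, with adjusted p from 0.00839 to 0.398. Those of Fgf10 and Fgf11 ended in 2 and 4, without VTA library 4 and with the astrocyte covariate in both cases, and without VTA library 4 edgeR called 0 of the list, with 3 at an unadjusted p under 0.05 (DESeq2 called 3 with all libraries). Fgf7 did not pass (-0.71, SE 1.31). Fgf4, Fgf6 and Fgf8 had 0 reads in every library, which allows up to 0.0369 to 0.0481 CPM at 3 counts, for counting error only.

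Receptor partners were called in both directions. Of 9 genes of other receptors and coreceptors, 7 were tested, with 1 called in SNpc, 4 in VTA and a median of -0.85. Flrt2 (36.6 ± 10.2 and 85.4 ± 8.43 CPM, log2 fold change -1.22), Flrt3 (-0.81) and Flrt1 (-0.58), membrane proteins that bind FGF receptors, and the cadherin Cdh2 (-0.86) were higher in VTA. The adhesion molecule Ncam1 was higher in SNpc (0.43), the only call in that direction. It ended with the astrocyte covariate and with libraries blocked by replicate number. The call of Flrt1 ended after the length trend was removed. Fgfr4 had reads in VTA libraries 2 and 5 only, 26 and 1, and was not tested.

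Proteins that bind FGFs or take part in FGF1 release gave 2 of 6 tested genes called in SNpc, 0 called in VTA and a median of 0.24. They were Lrrc59 (149 ± 8.98 and 97.6 ± 12.6 CPM, 0.61), needed for nuclear import of FGF1, and the synaptic vesicle calcium sensor Syt1 (1593 ± 178 and 1096 ± 124 CPM, 0.54), and the call of Syt1 ended with the astrocyte covariate. S100a13 (-1.17, SE 0.71) and Sphk1 (-0.69, SE 0.96) did not pass. S100a13 passed without SNpc library 4, at -1.97.

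Genes of heparan sulphate, the cofactor of FGF binding, gave 10 of 24 tested higher in VTA and 0 in SNpc, with a median of -0.43. All 4 N-sulphotransferases were among the 10, including Ndst1 (98.4 ± 3.45 and 182 ± 14.2 CPM, -0.89), Ndst2 (-1.19) and Ndst3 (-1.37), together with the chain polymerase gene Ext1 (-0.99). The call of Ndst3 ended with the astrocyte covariate. The abundant core protein gene Sdc2 (183 and 224 CPM, -0.30) and Extl3 (173 and 194 CPM, -0.17) did not pass. Sdc2 passed without VTA library 2 (-0.38) and on library totals (-0.35), and Extl3 without SNpc library 2 (-0.40). With the astrocyte covariate 4 of the list were called higher in VTA.

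The adaptors and the MAP kinase cascade, which other receptor tyrosine kinases share, were split, with 7 of 23 called in SNpc, 9 in VTA and a median of 0.04. The adaptor Shc1 (17.4 ± 5.92 and 56.2 ± 6.96 CPM, -1.69), the exchange factor Sos2 (-0.79), Nras (-0.95) and the phospholipase Plcg1 (-0.72) were higher in VTA. The kinase gene Mapk3 was higher in SNpc (253 and 211 CPM, 0.26 with an SE of 0.10), but its call ended in 11 of 18 alternatives and its value was -0.0099 after removal of the length trend. With the astrocyte covariate 2 were called in SNpc and 5 in VTA, and with the length trend removed 9 and 4.

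Among feedback inhibitors and target genes, 5 of the 13 that were tested were called in VTA and 1 was called in SNpc, with a median of -0.90. Spry4 (26.7 ± 8.55 and 68.0 ± 10.7 CPM, -1.35), Spry1 (-1.62) and Spred1 (-1.05), inhibitors of receptor tyrosine kinase signalling, and the phosphatase Dusp4 (-1.46) were called in VTA in all 18 alternatives. The fifth was Spry2. The transcription factor Etv5 was higher in SNpc (305 ± 50.9 and 230.0 ± 33.0 CPM, 0.41), a call that ended without SNpc library 1 and with the astrocyte covariate. Spred2 (-0.58, SE 0.29) did not pass, but did without SNpc library 1 (-0.97).

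The partners of the intracellular FGFs gave 5 of 12 tested higher in VTA and 1 in SNpc, with a median of -0.36. The pore subunits Scn8a (134 ± 25.3 and 245 ± 41.1 CPM, -0.87), Scn9a (-0.84), Scn1a (-0.42) and Scn2a1 (-0.32) were higher in VTA, and the auxiliary subunit Scn2b (270.2 ± 11.5 and 200.4 ± 15.8 CPM, 0.43) in SNpc. The fifth gene higher in VTA was the scaffold Mapk8ip2. The calls of Scn2a1 and Scn1a ended in 10 and 5 of 18 alternatives, and those of Scn8a and Scn9a after removal of the length trend. Without SNpc library 1 or 2, or VTA library 2, 4 or 5, 3 were called in VTA. After removal of the length trend 0 were called in VTA and 3 in SNpc, and the values of Scn1a and Scn2a1 turned to 0.079 and 0.21. The 6 members called in the family kept their calls under that correction.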

How the data were processed

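The authors deposited 1 table of read counts per gene, whole numbers without normalization, with 12 columns (6 for each region). Per the submitters' processing notes, TopHat2 2.0.8 and mm10 were used for alignment. How reads were counted, with which annotation and strand setting, is not given in the sources used here. Libraries were amplified from very little RNA without strand marks, per the labels' protocols. No column lacked a sample, and 0 lines named no gene.

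Identical columns were counted once. Genes were filtered by filterByExpr, scaled by TMM and tested with a robust quasi-likelihood F test (edgeR 4.0.16, R 4.3.3), with Benjamini-Hochberg adjustment over 15685 genes. The steps were also run on simulated counts with less spread between libraries than these data, whose biological coefficient of variation was 39.6%. That run does not measure power or false calls here. Log2 CPM used a prior count of 2. Alternatives were DESeq2 1.42.0, its size factors, library totals, no filter, 12 columns, a replicate block, an astrocyte covariate, a lowess length trend (span 0.3, lengths for 94.3% of tested genes) and each library left out. SE is the log2 fold change over the root of F. In each list the 4 genes of smallest p and the 2 of highest level are named, and others were chosen after their values were seen. A gene that this rule names in the MAP kinase list is not reported here. Members and lists were chosen with earlier results of these data known. Symbols matched RefSeq for 23008 identifiers.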

Additional observations from a re-analysis of the deposited data

Results flagged for a closer look

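In 3 of 20 combinations of a member and a region, 1 library lay far from the other 4, where chance flags about 1 in 20. Fgf20 had its lowest SNpc value in library 4, at 4.70 CPM. Fgfr3 had its highest SNpc value in the same library, at 5.66 CPM. Fgf2 had its highest SNpc value in library 2, at 1.47 CPM, from 90 reads. Without SNpc library 4 the log2 fold changes were 1.86 for Fgf20 and -1.73 for Fgfr3, and both genes were still called. That library held the SNpc value nearest to VTA for both genes and was singled out after its values were seen. Leaving it out is therefore no independent check of these calls.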

How the results depend on the processing

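The number of members called was 6 in 16 of 18 alternatives, 7 after the length trend was removed and 1 with the astrocyte covariate, which also lowered the genes called from 5996 to 2626. The cause of the fall was not tested. Leaving out 1 library gave 5074 to 6510 genes and 6 members in each case. With the replicate block 4385 genes and 6 members were called. SNpc library 3 and VTA library 5 had no same-numbered partner left, so in that fit they add nothing to the difference between regions. The labels do not say that numbers pair the libraries, and same-numbered SNpc and VTA libraries had deviations correlated at -0.072 to 0.044, not always the highest value of a library. The block therefore says nothing of pairing, but the adaptor list had 5 genes higher in VTA and not 9, the sodium channel partners 3 and not 5, and the coreceptors 0 and not 1 in SNpc, where Ncam1 had an edgeR adjusted p of 0.051. After removal of the length trend, 3 called genes changed sign, Mapk3 (-0.0099), Scn1a (0.079) and Scn2a1 (0.21), and so did Fgf2 (0.011), Fgf12 (0.026) and Extl3 (0.17), which had not been called, all without passing. With the covariate 4 heparan sulphate genes, 3 partners and 0 other FGFs were called in VTA, against 10, 5 and 3 without it, and 2 adaptor genes against 7 in SNpc. Leaving out 1 library brought the partners in VTA to as few as 3 and the other FGFs to 0. Low counts limit Fgfr4 and most other FGF genes, and Fgf2 is limited by its wide SE.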
